A study of Homo sapiens with 24 samples.

Results

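The genes described here are 10 chemokines and cytokines of tumor cells, the ligands CXCL1, CXCL2, CXCL3, CXCL8, CCL20 and CCL26 and the cytokines IL6, IL32, IL1A and IL1B. They were chosen by matching their symbols in GENCODE v29 to the Ensembl gene identifiers of the count tables, which found all 10 among the 57500 genes listed there. FaDu and SAS are established cell lines from human head and neck squamous cell carcinomas, grown as spheroids, which are small three-dimensional aggregates without host tissue. RNA of whole spheroids was sequenced to compare treatment with hyperthermia (HT), radiation therapy (RT) and both. The FaDu groups were an untreated control, RT with a single dose of 7 Gy, HT at 42.5 °C for 60 min, and HT + RT, in which the same heat was followed by 7 Gy. The SAS groups were built in the same way with a dose of 10 Gy, so that line and dose changed together in every irradiated group. All 8 groups were collected 0.5 h after treatment, and each held 3 replicates, which the study describes as independent experiments, for 24 libraries in all.

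Total counts per library ran from 15203484 to 29452514, with a median of 18378943.5. The 3 FaDu control libraries held 17690374 to 21862472 counts and the 3 SAS control libraries 17797336 to 19645956. FaDu replicate 1 stood apart from replicates 2 and 3 in every FaDu group. For a pair of libraries, the chi-square of a gene's 2 counts against those expected from depth, averaged over genes with at least 20 counts, is about 1 where only counting error is at work. It was 15.9 and 15.1 for the pairs of FaDu control replicate 1 with replicates 2 and 3, and 3.51 for the pair of replicates 2 and 3. In the SAS controls the 3 pairs had values of 4.61, 10.3 and 9.06. The irradiated FaDu replicate 1 also differed in the early response gene FOS, which measured 183, 28.8 and 33 CPM (counts adjusted for the depth of each library) in the 3 FaDu RT libraries and 15.8, 16.7 and 19.2 in the FaDu controls. The accounts of the FaDu comparisons that use it also give the calls made without this library.

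Chemokines are small secreted proteins that guide leukocytes along a gradient, and the ELR-type CXC ligands such as CXCL8 and CXCL1 draw neutrophils through the receptor CXCR2. Cytokines such as IL6 and the IL-1 proteins alter the state of cells that carry their receptors, and epithelial tumor cells make many of them under stress. Their genes are commonly transcribed through NF-kappaB and AP-1, and their mRNAs are often short-lived because AU-rich stretches are bound by decay factors such as ZFP36.

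The markers of the labelled cell type were present. All 10 squamous epithelial markers averaged at least 1 CPM in each of the 8 groups, and their summed level was 10800 ± 66 CPM (SD, n = 3) in FaDu controls and 4940 ± 199 CPM in SAS controls, with KRT17 the most abundant. Untreated FaDu had more KRT5 (1.65), KRT14 (1.30), KRT6A (3.45), KRT17 (1.56) and DSG3 (1.62) and less EPCAM (-1.05), as log2 differences between the lines that passed the test. The 10 leukocyte markers summed to 8.89 ± 0.156 CPM in FaDu controls and 14.1 ± 2.54 CPM in SAS controls, most of it CD14. Of the 10, PTPRC had 13 counts, LYZ 19, CD3E 3, MS4A1 4, CD79A 37 and NKG7 11 over all 24 libraries together, while CD14 had 2954, CD68 853, CSF1R 818 and ITGAM 475, these 4 present in every library. ITGAM was higher in untreated FaDu (log2 fold change 2.23, SE 0.43, adjusted p = 0.00069) and CSF1R lower (log2 fold change -4.45, SE 0.50, adjusted p = 1.2e-05). The 5 endothelial markers summed to 8.04 ± 0.579 CPM in FaDu controls and 16.5 ± 4.96 CPM in SAS controls, with CDH5 the most abundant at 4329 counts over all libraries, beside 896 of VWF, 309 of PECAM1, 6 of KDR and 15 of TEK. PECAM1 was higher in untreated FaDu (log2 fold change 2.32, SE 0.57, adjusted p = 0.0034) and CDH5 lower (log2 fold change -1.75, SE 0.26, adjusted p = 1e-04). Among 7 fibroblast markers the sum in SAS was 1.96, 1.77 and 2.59 CPM in the controls, 2.71, 1.94 and 2.61 with RT, 31.8, 17.5 and 25.5 with HT, and 25.6, 25.3 and 24.8 with HT + RT. With heat that sum was almost all COL1A1, at 1.33 ± 0.444 CPM in SAS controls and 23.6 ± 7.11 with HT, while COL1A2 had 52 counts, COL3A1 25, DCN 14, LUM 41, PDGFRB 92 and PDGFRA 83 over all 24 libraries. In FaDu the same list summed to 42.2 ± 5.77 CPM in controls and 54.4 ± 8.48 with HT. COL1A1 was called with HT in SAS (log2 fold change 4.18, SE 0.28, adjusted p = 6.4e-07), between the untreated lines (log2 fold change 5.01, SE 0.19, adjusted p = 3.1e-09) and in the interaction of line with HT (log2 fold change -3.76, SE 0.34, adjusted p = 1e-05), and likewise in SAS with HT + RT against control (4.23) and against RT (4.11) and in the interaction of line with HT + RT (-3.76). The part of COL1A1-bearing cells in the differences by heat was not tested. These are bulk samples, so fewer cells of a type and less RNA per cell cannot be told apart.

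On build GRCh38, CXCL8 (ENSG00000169429, chr4:73740506-73743716, forward strand), CXCL1 (ENSG00000163739, chr4:73869393-73871242, forward strand), CXCL3 (ENSG00000163734, chr4:74036589-74038807, reverse strand) and CXCL2 (ENSG00000081041, chr4:74097035-74099293, reverse strand) lie in the CXC cluster of chromosome 4. On chromosome 2 are IL1A (ENSG00000115008, chr2:112773915-112784590, reverse strand), IL1B (ENSG00000125538, chr2:112829751-112836903, reverse strand) and CCL20 (ENSG00000115009, chr2:227805739-227817564, forward strand). IL6 (ENSG00000136244, chr7:22725884-22732002, forward strand) and CCL26 (ENSG00000006606, chr7:75769533-75789896, reverse strand) are on chromosome 7, and IL32 (ENSG00000008517, chr16:3065297-3082192, forward strand) is on chromosome 16. CXCL1, CXCL2 and CXCL3 are close paralogs. Of the stretches of 50 bases in their transcripts, 4.81% in CXCL1, 12.5% in CXCL2 and 6.01% in CXCL3 also occur in a transcript of another of these 3 genes, so reads there could be assigned to either and their separate values are less certain. IL32 shares 2.56% of its stretches with other genes on the same strand, and CXCL8, CCL20, CCL26, IL1A and IL1B share none. On the opposite strand IL6 shares 15.3% of its stretches with AC073072.1 and IL32 shares 0.378% with other genes. IL6 overlaps AC073072.1 and STEAP1B on the opposite strand. Over 3 libraries each, AC073072.1 had 1 count in FaDu controls and 10 with HT, and 26 in SAS controls and 19 with HT, against 75, 1563, 171 and 859 counts of IL6 in the same groups.

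Promoter sequences were taken from RefSeq, build GRCh38.p14, as windows from 250 bases before to 50 bases after a start site. All 10 members matched by symbol, and IL32 and IL1A had 2 start sites each, which gave 12 windows. They were searched on both strands for the NF-kappaB motif GGANTTTCC, the AP-1 motif TGANTCA, and a heat shock element written as GAANNTTC or TTCNNGAA. The NF-kappaB motif was found in 6 of the 10 members, AP-1 in 2 and the heat shock element in 3. Counted by window they were in 6, 3 and 4 of the 12, while 1.64%, 7.71% and 13.5% of the 35116 windows of all genes hold them. No matches of different motifs overlapped in the 12 windows. The NF-kappaB match began 78 bases before the start site in CXCL1, 77 in CXCL2, 78 in CXCL3, 91 in CXCL8 and 72 in IL6, and the first IL32 window held 2, at 98 and 68 bases. CXCL8 had an AP-1 match 137 bases before its start site, and the 2 IL1A windows, which overlap, held the same 2 AP-1 matches. Heat shock element matches were in both IL32 windows, the first IL1A window and IL1B, which had 2, at 133 and 67 bases before the start site. CCL20 and CCL26 held no match to the 3 motifs as written in their windows. Sites with other letters were not searched for, so an absent match does not show that a site is absent. A match describes letters only and was not tested for binding.

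**Figure D1:**
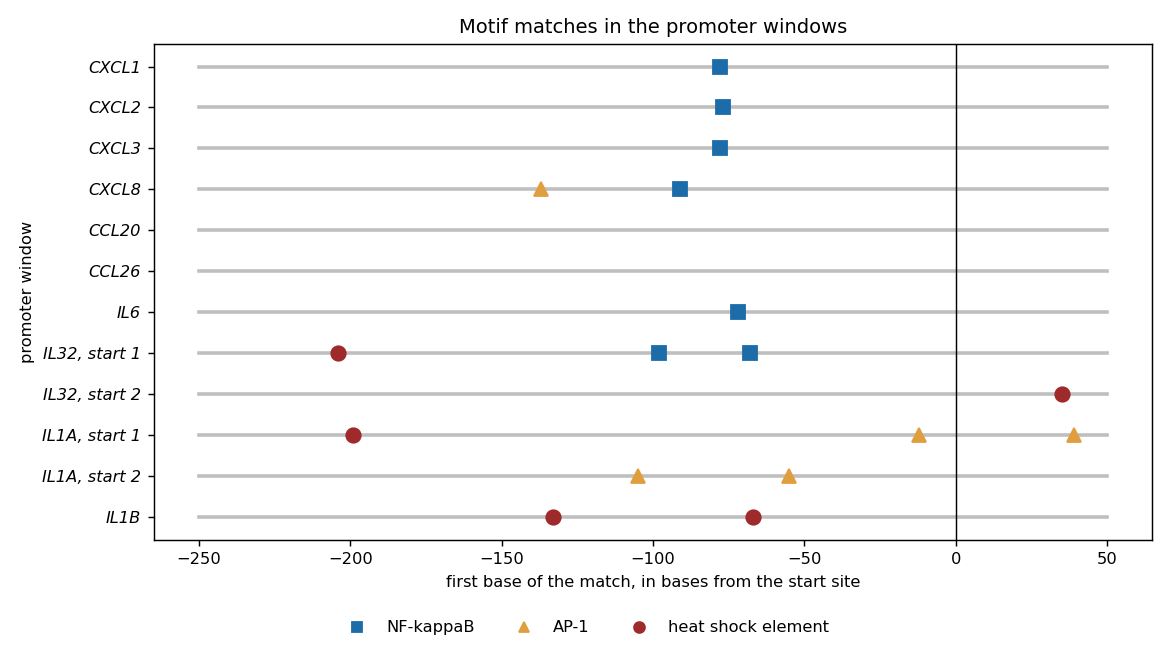
Matches of 3 motifs in the 12 promoter windows of the 10 genes, by distance in bases from the start site (vertical line), with each symbol at the first base of a match. NF-kappaB matches of CXCL1, CXCL2, CXCL3, CXCL8 and IL6 lie 72 to 91 bases before the start site, and the CCL20 and CCL26 windows hold no match to the motifs as written.

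The windows of 5 members are printed as examples of where the matches lie in 2 CXC ligands, IL6, IL32 and an IL-1 gene, and windows without a match are not printed. Capitals mark the motif matches, in CXCL8 (chr4:73740319-73740618, forward strand) AP-1 and then NF-kappaB, in CXCL2 (chr4:74099146-74099445, reverse strand) and IL6 (chr7:22726950-22727249, forward strand) NF-kappaB, in the first window of IL32 (chr16:3065153-3065452, forward strand) a heat shock element and then 2 NF-kappaB matches, and in IL1B (chr2:112836730-112837029, reverse strand) 2 heat shock elements. Each is written along the strand of its gene.
CXCL8: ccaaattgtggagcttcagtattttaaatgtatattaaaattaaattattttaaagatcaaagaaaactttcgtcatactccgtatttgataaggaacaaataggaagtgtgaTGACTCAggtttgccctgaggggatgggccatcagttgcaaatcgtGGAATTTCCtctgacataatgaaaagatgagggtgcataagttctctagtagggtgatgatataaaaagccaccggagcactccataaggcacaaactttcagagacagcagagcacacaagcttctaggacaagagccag
CXCL2: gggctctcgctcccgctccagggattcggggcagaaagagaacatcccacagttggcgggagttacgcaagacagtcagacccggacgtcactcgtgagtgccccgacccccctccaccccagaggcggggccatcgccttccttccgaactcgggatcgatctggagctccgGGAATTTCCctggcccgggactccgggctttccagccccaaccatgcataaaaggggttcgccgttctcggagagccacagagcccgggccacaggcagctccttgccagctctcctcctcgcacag
IL6: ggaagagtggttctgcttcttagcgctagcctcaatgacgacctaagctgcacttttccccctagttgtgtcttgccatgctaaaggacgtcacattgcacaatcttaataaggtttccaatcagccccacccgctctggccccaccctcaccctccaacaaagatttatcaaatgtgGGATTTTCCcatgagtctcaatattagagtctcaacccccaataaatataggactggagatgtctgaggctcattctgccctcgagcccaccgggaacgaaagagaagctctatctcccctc
IL32: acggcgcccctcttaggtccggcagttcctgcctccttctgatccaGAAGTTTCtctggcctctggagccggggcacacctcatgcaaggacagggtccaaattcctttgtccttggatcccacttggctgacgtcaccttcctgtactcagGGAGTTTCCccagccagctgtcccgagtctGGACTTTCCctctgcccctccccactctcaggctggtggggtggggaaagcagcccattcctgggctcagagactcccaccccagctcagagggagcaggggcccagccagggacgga
IL1B: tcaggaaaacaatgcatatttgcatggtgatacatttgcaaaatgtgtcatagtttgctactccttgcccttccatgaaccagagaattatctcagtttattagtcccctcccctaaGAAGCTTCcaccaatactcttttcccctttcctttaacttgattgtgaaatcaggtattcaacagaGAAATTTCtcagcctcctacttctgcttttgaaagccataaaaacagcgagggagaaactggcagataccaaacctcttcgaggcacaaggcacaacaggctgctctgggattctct

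Levels between genes are compared as CPM per kilobase of exon (RPKM). In FaDu controls the mean level was highest for CXCL1, at 61.6 ± 7.61 RPKM (SD, n = 3), followed by IL1B at 51.4 ± 2.29 and IL1A at 48.2 ± 4.53, and the libraries of these 3 overlapped. CXCL8 came next at 19.4 ± 0.728 RPKM, well separated from its neighbours. CXCL2 (2.96 ± 0.374), IL32 (1.98 ± 0.286), CXCL3 (1.33 ± 0.266), CCL20 (0.904 ± 0.261), IL6 (0.587 ± 0.151) and CCL26 (0.304 ± 0.135) were all below 3 RPKM. In SAS controls IL1B at 39.3 ± 3.61 and IL1A at 38.9 ± 5.15 RPKM stood far above the rest and did not differ beyond their spread. The other 8 members ran from 0.154 ± 0.00618 RPKM for CXCL3 to 1.75 ± 0.48 for IL32, with CXCL1 at 1.22 ± 0.284 and CXCL8 at 0.655 ± 0.0973.

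**Figure D2:**
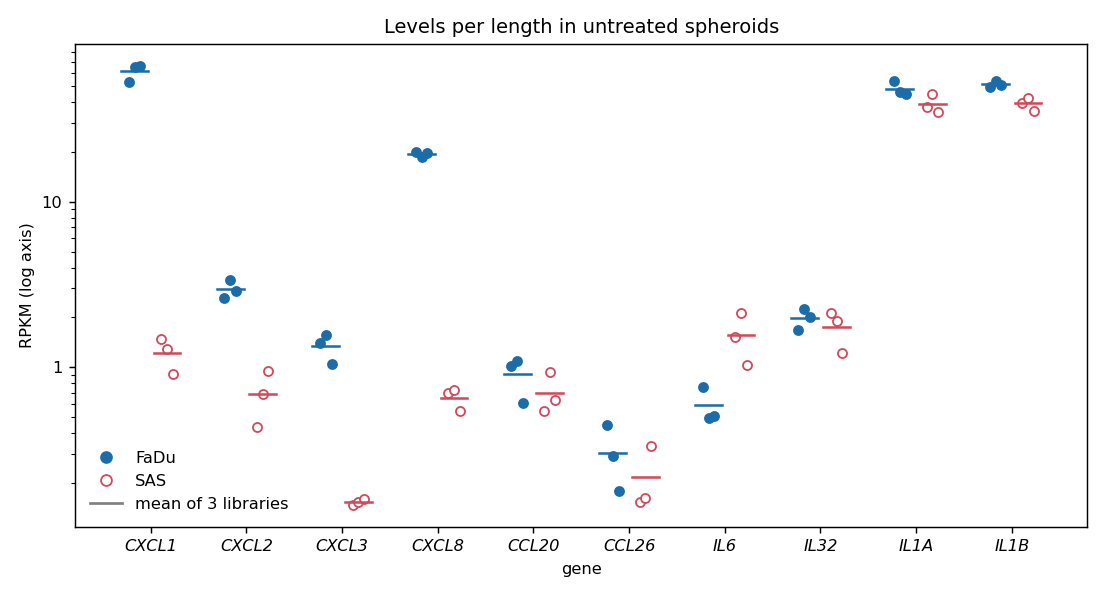
RPKM on a log axis of the 10 genes in the 3 FaDu (filled) and 3 SAS (open) control libraries, with lines at the means. CXCL1 averages 61.6 RPKM in FaDu and 1.22 in SAS, while IL1B averages 51.4 and 39.3.

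To ask how the untreated lines differ, FaDu controls were tested against SAS controls. Throughout, rose, fell, higher or lower as the result of a test means a Benjamini-Hochberg adjusted p under 0.05 over all genes tested by edgeR's quasi-likelihood test together with a log2 fold change beyond 1 or -1. Of 9 members tested, 4 were higher in FaDu and 1 was lower, against 38.1% of all 15810 genes called. All 4 CXC ligands were higher in FaDu: CXCL1 by 51.2-fold (log2 fold change 5.68, SE 0.16, adjusted p = 3.7e-10), CXCL8 by 30-fold (log2 fold change 4.91, SE 0.12, adjusted p = 2.2e-10), CXCL3 (log2 fold change 3.12, SE 0.32, adjusted p = 5.7e-06) and CXCL2 (log2 fold change 2.14, SE 0.28, adjusted p = 3.6e-05). IL6 was lower in FaDu (log2 fold change -1.38, SE 0.32, adjusted p = 0.0022). IL1A (log2 fold change 0.34, SE 0.10, adjusted p = 0.01) and IL1B (log2 fold change 0.42, SE 0.08, adjusted p = 0.00057) differed by less than the fold threshold, CCL20 (log2 fold change 0.38, SE 0.34, adjusted p = 0.33) and IL32 (log2 fold change 0.21, SE 0.22, adjusted p = 0.39) did not pass, and CCL26 had too few counts to be tested. The median log2 difference of the members tested was 0.42, and that of all genes 0.03.

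CXCL8, the neutrophil attractant also called interleukin 8, measured 45.4, 42.2 and 44.6 CPM in the FaDu controls, 70.6, 71.9 and 73.1 with RT, 222, 331 and 353 with HT and 256, 374 and 390 with HT + RT. In SAS it was 1.58, 1.65 and 1.24 CPM in the controls, 2.2, 3.56 and 1.66 with RT, 5.75, 6.15 and 5.04 with HT and 6.59, 7.81 and 5.34 with HT + RT. Every heated library lay above every unheated library of its line, and in FaDu the RT libraries lay above the controls without overlap. The SAS RT and control libraries met at 30 and 29 counts, and with plain totals they overlapped. Heat raised CXCL8 6.98-fold in FaDu (log2 fold change 2.80, SE 0.17, adjusted p = 1.9e-05) and 3.86-fold in SAS (log2 fold change 1.95, SE 0.21, adjusted p = 3.8e-05). Between the lines this difference did not pass the interaction test (log2 fold change 0.88, SE 0.31, adjusted p = 0.12), but without FaDu HT replicate 1 it did, at 1.02 with an adjusted p of 0.002. RT alone gave a difference below the fold threshold in FaDu (log2 fold change 0.71, SE 0.06, adjusted p = 0.005) and did not pass in SAS (log2 fold change 0.74, SE 0.31, adjusted p = 0.84), where the replicate block gave 0.71 (adjusted p = 0.25).

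CXCL1, which shares the receptor CXCR2, was already abundant in untreated FaDu, with 68.5, 85.2 and 85.9 CPM in the controls, 93, 114 and 130 with RT, 71.5, 102 and 82.2 with HT and 81.5, 101 and 99.2 with HT + RT. In SAS its values were 1.9, 1.65 and 1.18 CPM in the controls, 2.2, 3.3 and 1.39 with RT, 5.24, 5.16 and 2.44 with HT and 3.93, 5.09 and 3.26 with HT + RT. The FaDu heat groups overlapped the controls while its RT group lay above them, and all SAS heat libraries lay above the SAS controls. CXCL1 rose with heat in SAS (log2 fold change 1.47, SE 0.32, adjusted p = 0.0058) and did not pass in FaDu (log2 fold change 0.12, SE 0.14, adjusted p = 0.61). A line by HT interaction passed (log2 fold change -1.31, SE 0.35, adjusted p = 0.042), but not in 8 of the 12 fits that left out 1 library. These were the fits without FaDu control replicate 2 (-1.26, adjusted p = 0.081) or 3 (-1.26, 0.084), FaDu HT replicate 3 (-1.33, 0.06), SAS control replicate 1 (-1.51, 0.054), 2 (-1.34, 0.089) or 3 (-1.19, 0.11), and SAS HT replicate 1 (-1.19, 0.096) or 2 (-1.20, 0.11).

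CXCL2, a neutrophil attractant encoded near CXCL1, measured 3.94, 5.04 and 4.32 CPM in FaDu controls, 7.86, 11.9 and 12.2 with RT, 6.84, 9.83 and 10.2 with HT and 10.5, 13.7 and 15.1 with HT + RT. Its SAS values were 0.653, 1.03 and 1.41 CPM in controls, 2.93, 3.25 and 3.16 with RT, 0.958, 1.25 and 0.271 with HT and 1.2, 1.7 and 1.09 with HT + RT. In both lines every RT library was above every control, and in SAS the RT libraries were also above every heated library. With RT the difference was 2.41-fold in FaDu (log2 fold change 1.27, SE 0.20, adjusted p = 0.14) and 3.03-fold in SAS (log2 fold change 1.60, SE 0.28, adjusted p = 0.1), past the fold threshold but not past the adjusted p. When replicates entered the fit as a block, it passed in FaDu (1.27, adjusted p = 8.2e-08) and in SAS (1.61, adjusted p = 0.0016). DESeq2 also called it in FaDu (adjusted p = 5.1e-06) and SAS (adjusted p = 0.006), and so did edgeR in FaDu without RT replicate 1 (1.44, adjusted p = 0.0075). Heat raised CXCL2 in FaDu (log2 fold change 1.04, SE 0.20, adjusted p = 0.0078), a call that ended without FaDu control replicate 1 (0.97), HT replicate 2 (0.98) or HT replicate 3 (0.93). SAS showed no such difference past the test (log2 fold change -0.27, SE 0.49, adjusted p = 0.74), and the line by HT interaction did not pass (log2 fold change 1.34, SE 0.52, adjusted p = 0.18), except with no filter on low counts (1.30, adjusted p = 0.036). In irradiated SAS spheroids heat lowered it, as HT + RT against RT shows (log2 fold change -1.18, SE 0.24, adjusted p = 0.0038). The same contrast in FaDu did not pass (log2 fold change 0.32, SE 0.19, adjusted p = 0.31). With the replicate block it had an adjusted p of 0.034 at the same size, below the fold threshold. The difference between the lines in this contrast was not tested.

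CXCL3, the third close paralog, measured 3.1, 3.46 and 2.31 CPM in FaDu controls, 4.01, 5.59 and 5.61 with RT, 6.02, 10.3 and 9.97 with HT and 6.74, 10.1 and 9.22 with HT + RT. All FaDu heat libraries were above all unheated ones, but with plain totals HT replicate 1 (6.13) lay below RT replicate 2 (6.3). It rose with HT in FaDu (log2 fold change 1.60, SE 0.25, adjusted p = 0.0035). In SAS CXCL3 had 18, 23, 19 and 31 counts over the 3 libraries of the control, RT, HT and HT + RT groups and was not tested there. Its interaction of line with HT did not pass (log2 fold change 1.59, SE 0.62, adjusted p = 0.18).

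CCL20, a ligand of CCR6 that attracts dendritic cells and lymphocytes, measured 1.63, 1.73 and 0.965 CPM in FaDu controls, 2.52, 2.4 and 2.71 with RT, 6.31, 7.37 and 9.13 with HT and 10, 13.6 and 10.6 with HT + RT. For SAS the values were 0.87, 1.48 and 1 CPM in controls, 2.03, 1.94 and 1.16 with RT, 1.58, 1.98 and 1.57 with HT and 1.73, 2.52 and 2.23 with HT + RT. The FaDu groups formed ascending, non-overlapping sets from control through RT and HT to HT + RT, and in SAS the HT and HT + RT libraries lay above the controls by a small margin, which for HT was gone with plain totals. CCL20 rose 5.42-fold with HT in FaDu (log2 fold change 2.44, SE 0.26, adjusted p = 0.00051), while SAS did not pass (log2 fold change 0.65, SE 0.31, adjusted p = 0.15). Its line by HT interaction passed (log2 fold change 1.82, SE 0.40, adjusted p = 0.014), but not without SAS control replicate 2 (1.56, adjusted p = 0.058).

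CCL26, known as eotaxin-3 and a ligand of CCR3 on eosinophils, was near the limit of detection without heat, with 6, 4 and 3 counts in the FaDu controls and 2, 2 and 4 in the SAS controls. It measured 2.69, 3.08 and 4.01 CPM with HT and 3.2, 3.94 and 3.92 with HT + RT in FaDu, and 3.77, 3.91 and 6.07 with HT and 4.46, 5.91 and 5.65 with HT + RT in SAS. In RT libraries it stayed at 1, 5 and 5 counts in FaDu and 2, 6 and 1 in SAS, too few to be tested. No heated library overlapped an unheated one in either line. CCL26 rose with HT in FaDu (log2 fold change 3.95, SE 0.37, adjusted p = 0.00024) and in SAS (log2 fold change 4.89, SE 0.39, adjusted p = 3.2e-06), where it had the largest log2 difference of the 9 members tested. With so few control counts the size of these differences is imprecise, and the interaction of line with HT did not pass (log2 fold change -0.91, SE 0.68, adjusted p = 0.57).

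IL6, which acts through the receptor IL6R and the shared chain IL6ST, measured 1.57, 1.02 and 1.05 CPM in FaDu controls, 3.7, 0.959 and 2.12 with RT, 25, 25.8 and 33.9 with HT and 33.2, 36.3 and 43.4 with HT + RT. SAS values of IL6 were 3.15, 4.39 and 2.12 CPM in controls, 5.19, 9.02 and 4.05 with RT, 17.7, 16.8 and 12 with HT and 14.9, 18.5 and 13.4 with HT + RT. Heated and unheated libraries did not overlap in either line, and the RT groups overlapped the controls in both. Within each of the 3 SAS replicate numbers IL6 was higher with RT than in the control, at a log2 difference of 0.92 (adjusted p = 0.71) without the replicate block and 0.91 (adjusted p = 0.0045) with it, both below the fold threshold. In FaDu IL6 rose 23.8-fold with HT (log2 fold change 4.57, SE 0.21, adjusted p = 3.3e-06), the largest log2 difference among the members for HT against control in that line, and in SAS 4.91-fold (log2 fold change 2.30, SE 0.23, adjusted p = 2.3e-05). For IL6 the line by HT interaction passed (log2 fold change 2.30, SE 0.36, adjusted p = 0.0013). It also did so in all 17 alternatives run (2.02 to 2.52), of which the adjusted p alone could not end a call. Controls started lower in FaDu, as given above, and heated FaDu spheroids ended higher, at 13.6 ± 2.37 RPKM against 7.5 ± 1.48 in SAS.

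IL32, a cytokine that induces other inflammatory mediators, measured 5.4, 7.23 and 6.46 CPM in FaDu controls, 5.55, 6.13 and 6.32 with RT, 19, 15.9 and 16.7 with HT and 20.6, 20.9 and 25 with HT + RT. In SAS its levels were 6.85, 6.1 and 3.89 CPM in controls, 8.63, 5.29 and 2.77 with RT, 15.6, 12.7 and 5.86 with HT and 15.7, 11.6 and 6.89 with HT + RT. FaDu heat libraries were clear of the unheated ones, whereas SAS HT replicate 3 fell inside the range of the SAS controls. IL32 rose with HT in FaDu (log2 fold change 1.46, SE 0.14, adjusted p = 0.00029) and in SAS (log2 fold change 1.05, SE 0.31, adjusted p = 0.028). The SAS call ended with DESeq2 (adjusted p = 0.096), with all 4 SAS groups in 1 fit (0.06), and without control replicate 3 (0.85, adjusted p = 0.078), HT replicate 1 (0.75, 0.12) or HT replicate 2 (0.97, 0.091). Within each of the 3 SAS replicate numbers IL32 was higher with HT than in the control. With the replicate block the SAS call held (1.02, adjusted p = 7.3e-05).

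IL1A, an alarmin held in epithelial cells and released on damage, measured 113, 98.1 and 95.8 CPM in FaDu controls, 134, 106 and 114 with RT, 108, 95.3 and 98.1 with HT and 111, 122 and 114 with HT + RT. In SAS it measured 79.1, 94.8 and 73.8 CPM in controls, 109, 109 and 80 with RT, 35.7, 32.5 and 22.3 with HT and 35.2, 40.5 and 28.1 with HT + RT. The FaDu controls overlapped each treated FaDu group, and all 6 heated SAS libraries lay below all 6 unheated ones. IL1A fell with HT in SAS (log2 fold change -1.42, SE 0.15, adjusted p = 3.3e-05) and did not pass in FaDu (log2 fold change 0.00, SE 0.08, adjusted p = 0.99). Its line by HT interaction passed (log2 fold change 1.45, SE 0.19, adjusted p = 0.00037), also in all 17 alternatives run (1.22 to 1.54), of which the adjusted p alone could not end a call.

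IL1B, the secreted form that binds the same receptor IL1R1, measured 154, 167 and 156 CPM in FaDu controls, 152, 140 and 147 with RT, 140, 130 and 133 with HT and 150, 145 and 154 with HT + RT. Its SAS levels were 123, 132 and 110 CPM in controls, 124, 117 and 119 with RT, 53.5, 58 and 56.8 with HT and 59.5, 62.6 and 55.3 with HT + RT. As for IL1A, the heated SAS libraries were all below the unheated ones, and in FaDu the HT libraries were slightly below the controls. IL1B fell with HT in SAS (log2 fold change -1.09, SE 0.08, adjusted p = 9.2e-07). In FaDu the difference was below the fold threshold (log2 fold change -0.22, SE 0.06, adjusted p = 0.045), and the interaction had an adjusted p past its threshold with a size just under the fold threshold (log2 fold change 0.90, SE 0.10, adjusted p = 8.7e-05).

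**Figure D3:**
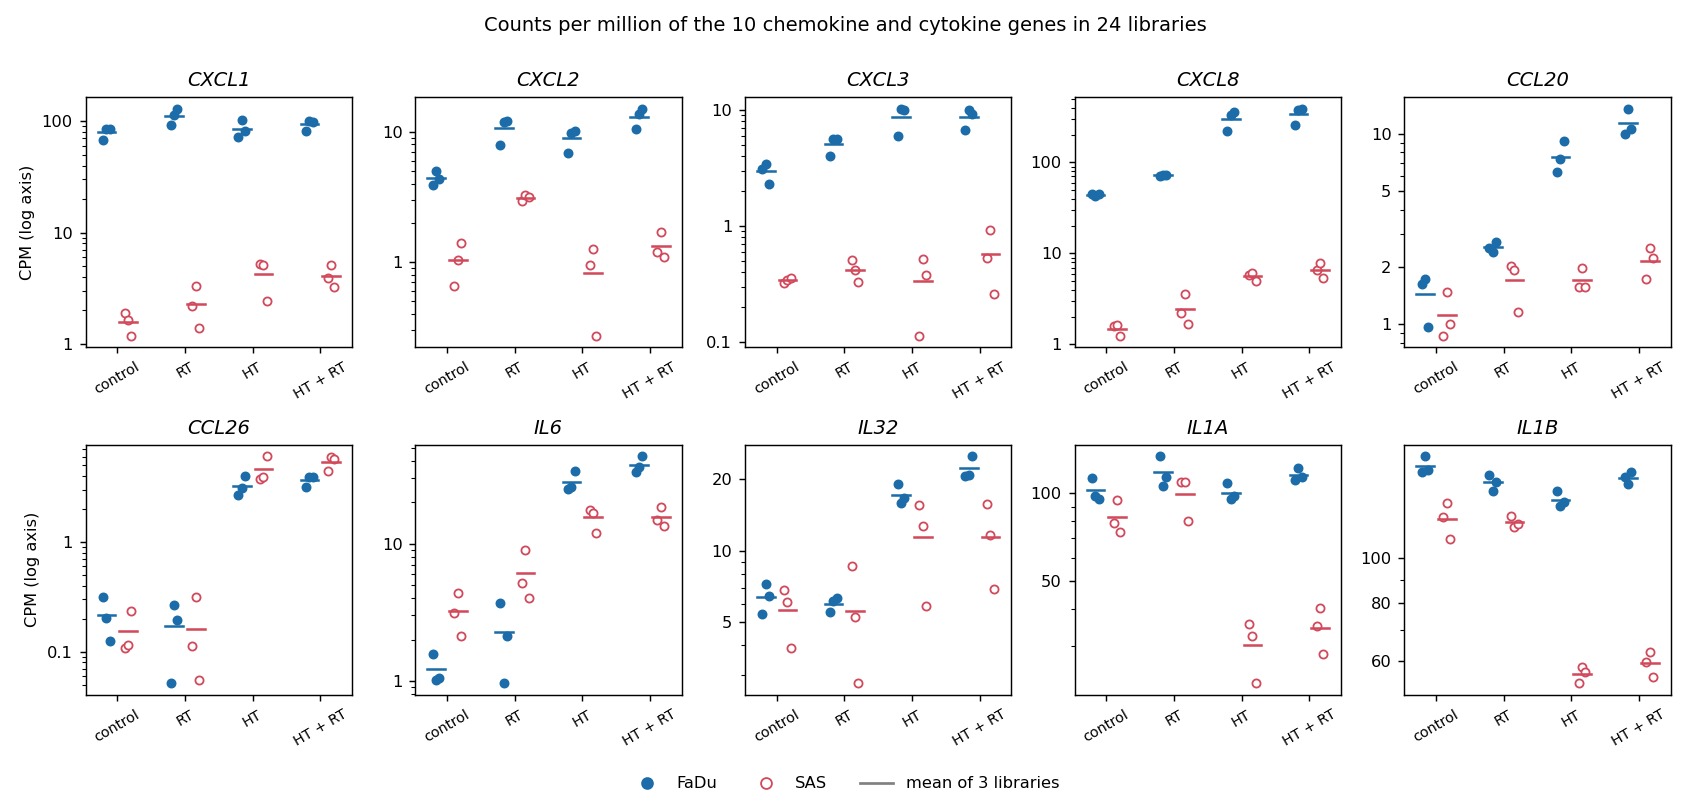
CPM on a log axis of each gene by treatment in FaDu (filled) and SAS (open) spheroids, with 1 point per library and lines at the means of 3. CXCL8, CCL26 and IL6 are higher in all heated than in all unheated libraries of both lines, and IL1A and IL1B are lower in all heated SAS libraries.

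The comparison of RT with control asked what irradiation alone changed within 0.5 h. edgeR called 0 of 9 members tested in FaDu, beside 0.00643% of all 15552 genes. At an unadjusted p under 0.05 there were 5 members, all higher with RT, beside 791 genes in all (5.09%). DESeq2 called 1 member, CXCL2, among 11 genes, and the replicate block called the same member among 28 genes. The block also gave CXCL8 (0.71, adjusted p = 1.4e-09), CXCL1 (0.49, 1.9e-07), CXCL3 (0.80, 0.011) and IL1A (0.20, 0.032) an adjusted p under 0.05 below the fold threshold. Without FaDu RT replicate 1, edgeR called 1 member, again CXCL2, among 8 of 15924 genes (0.0502%), with 5 members and 1049 genes at an unadjusted p under 0.05. The IL6 difference went from 0.90 to 0.38 when it was left out. The median log2 difference of the members tested was 0.71 in FaDu, and that of all genes 0.00. For SAS the count was 0 of 8, beside 0.0272% of all 14680 genes, with 3 members at an unadjusted p under 0.05, CXCL2, IL6 and CXCL8, all higher, beside 834 genes (5.68%). DESeq2 called 1 SAS member among 10 genes and the block 1 among 25, CXCL2 in both, and in the block IL6 and IL1A (0.26, adjusted p = 0.023) had an adjusted p under 0.05 below the fold threshold. The SAS median was 0.58, beside 0.00 for all genes. The interaction of line with RT, a test of whether the lines differed in this, called 0 of 9 members with edgeR, beside 0% of all 16811 genes. It gave 0 members at an unadjusted p under 0.05, beside 2.74% of all genes, 0 with DESeq2, 0 with the block and 0 without FaDu RT replicate 1, beside 1 of 17317 genes.

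The comparison of HT with control asked the same of heat. In FaDu 7 of 10 members tested rose and 0 fell, beside 4.97% of all 15879 genes called in either direction. Those that rose were CXCL2, CXCL3, CXCL8, CCL20, CCL26, IL6 and IL32, and the members' median was 1.53 against 0.01 over all genes. In SAS 5 of 9 rose, CXCL1, CXCL8, CCL26, IL6 and IL32, and 2 fell, IL1A and IL1B, beside 6.03% of all 15000 genes. The SAS members' median was 1.05 against 0.00 over all genes. The interaction of line with HT called 4 of 10 members, CCL20, IL6 and IL1A toward FaDu and CXCL1 toward SAS, beside 2.74% of all 17219 genes. Without SAS control replicate 2 the count was 2, beside 419 of 17872 genes.

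HT + RT against control shares its control libraries with the comparisons above. In FaDu 7 of 10 members rose, beside 5.72% of all 15896 genes, among them IL6 (log2 fold change 4.98, SE 0.18, adjusted p = 3.3e-07), CCL20 (log2 fold change 3.01, SE 0.23, adjusted p = 5.3e-05) and CXCL2 (log2 fold change 1.59, SE 0.17, adjusted p = 0.00035). In SAS 6 of 9 rose and 1 fell, beside 6.36% of all 14938 genes, with CCL26 (log2 fold change 5.13, SE 0.33, adjusted p = 5.7e-07) at the top and IL1A (log2 fold change -1.20, SE 0.13, adjusted p = 3.6e-05) at the bottom. IL1B was just under the fold threshold (log2 fold change -0.99, SE 0.08, adjusted p = 3.4e-06) and passed with no filter (-1.01) or without control replicate 3 (-1.06) or HT + RT replicate 2 (-1.03). The SAS calls of CCL20 (log2 fold change 1.01, SE 0.29, adjusted p = 0.026) and IL32 (log2 fold change 1.06, SE 0.28, adjusted p = 0.016) ended in several alternatives. That of CCL20 ended with the replicate block (adjusted p = 0.01, with a size that no longer exceeded the fold threshold), with no filter (0.99) and without control replicate 1 (0.84), control replicate 3 (0.94), HT + RT replicate 2 (0.89) or HT + RT replicate 3 (0.99). That of IL32 ended with all 4 SAS groups in 1 fit (adjusted p = 0.059) and without control replicate 3 (0.85) or HT + RT replicate 1 (0.77), and held with the replicate block (1.05, adjusted p = 1.8e-06). The interaction of line with HT + RT called 4 of 10 members, beside 3.4% of all 17219 genes: CXCL1 (log2 fold change -1.13, SE 0.26, adjusted p = 0.015), CCL20 (log2 fold change 2.03, SE 0.39, adjusted p = 0.0039), IL6 (log2 fold change 2.70, SE 0.33, adjusted p = 0.00011) and IL1A (log2 fold change 1.44, SE 0.17, adjusted p = 7.1e-05). Without SAS HT + RT replicate 2 that of CXCL1 was -0.99 and no longer past the fold threshold. The interaction of CXCL2 did not pass (log2 fold change 1.19, SE 0.37, adjusted p = 0.072) but did with the block (1.21, adjusted p = 0.014), DESeq2 (0.031), no filter (0.024), without FaDu HT + RT replicate 1 (1.28) and without SAS control replicate 1 (1.39).

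HT + RT against RT gives the difference by heat in irradiated spheroids and uses no library of HT against control. In FaDu 5 of 10 members rose, beside 5.39% of all 15905 genes: CCL26 (log2 fold change 4.39, SE 0.37, adjusted p = 0.00016), IL6 (log2 fold change 4.07, SE 0.31, adjusted p = 9.9e-05), CXCL8 (log2 fold change 2.26, SE 0.15, adjusted p = 4.4e-05), CCL20 (log2 fold change 2.17, SE 0.17, adjusted p = 0.00012) and IL32 (log2 fold change 1.90, SE 0.12, adjusted p = 3.2e-05). CXCL3 was below the fold threshold (log2 fold change 0.79, SE 0.20, adjusted p = 0.026). With the replicate block CXCL1 (-0.24, adjusted p = 0.01) and CXCL2 (0.32, 0.034) also had an adjusted p under 0.05 below the fold threshold. Without FaDu RT replicate 1 the same 5 members rose, beside 5.49% of 16437 genes, with IL6 at 4.56 and CCL26 at 4.01. Of the other listed genes, that fit gained the calls of LTA (4.37, adjusted p = 0.019) and IL20 (2.22, 0.044), neither tested with all libraries, and JUNB (1.19, 6.6e-05), which with all libraries did not pass (log2 fold change 0.57, SE 0.34, adjusted p = 0.3). In SAS 4 of 9 rose, beside 6.6% of all 15125 genes: CCL26 (log2 fold change 5.01, SE 0.38, adjusted p = 2.1e-06), CXCL8 (log2 fold change 1.44, SE 0.26, adjusted p = 0.0018), IL6 (log2 fold change 1.39, SE 0.24, adjusted p = 0.0013) and IL32 (log2 fold change 1.06, SE 0.36, adjusted p = 0.045). The SAS groups of IL32 overlapped, and its call ended with DESeq2 (adjusted p = 0.16), with all 4 SAS groups in 1 fit (0.054) and without RT replicate 2 (0.11), RT replicate 3 (0.078), HT + RT replicate 1 (0.18) or HT + RT replicate 2 (0.1). Within each of the 3 replicate numbers IL32 was higher with HT + RT than with RT, and with the replicate block the call held (1.10, adjusted p = 6.9e-06). In SAS 2 members fell, IL1A (log2 fold change -1.48, SE 0.14, adjusted p = 1.5e-05) and CXCL2, while IL1B stayed just under the fold threshold (log2 fold change -0.98, SE 0.06, adjusted p = 6.3e-07). SAS CXCL1 was below it too (log2 fold change 0.87, SE 0.30, adjusted p = 0.048), and passed without RT replicate 2 (1.23) or HT + RT replicate 3 (1.01). SAS IL1B passed with no filter or without HT + RT replicate 2 (-1.02).

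HT + RT against HT gives the difference by irradiation in heated spheroids and uses no library of RT against control. edgeR called 0 of 10 members in FaDu, beside 0% of all 16145 genes, with 0 by DESeq2 and 0 with the block. At an unadjusted p under 0.05 there were 6 members, all higher with RT, beside 361 genes in all (2.24%), with log2 differences from 0.14 for IL1B to 0.56 for CCL20. The block gave IL6 (0.40, adjusted p = 0.0013), CXCL2 (0.54, 0.0056), CCL20 (0.55, 0.033) and IL32 (0.36, 0.048) an adjusted p under 0.05 with sizes below the fold threshold. In SAS edgeR called 0 of 9, beside 0% of all 15341 genes, with 0 by DESeq2, 0 with the block and 0 at an unadjusted p under 0.05, beside 4.39% of all genes. CXCL2, past the fold threshold with RT alone, had a log2 difference of 0.54 (SE 0.19) in heated FaDu and 0.69 (SE 0.44) in heated SAS.

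The interaction of HT with RT asked whether the combined treatment departed from the sum of both on the log2 scale. In FaDu edgeR called 0 of 10 members, beside 0% of all 16793 genes, with 0 by DESeq2 and 0 with the block. At an unadjusted p under 0.05 were 5, namely CXCL2 at -0.73, CXCL3 at -0.83, CXCL8 at -0.56, IL32 at 0.44 and IL1B at 0.26, beside 541 genes (3.22%). Without FaDu RT replicate 1 the count was 5, with CXCL1 in place of IL32, beside 672 of 17298 genes, and 0 members were called. The 1 gene called in that fit was EGR1 (-1.22, adjusted p = 0.0014), which with all libraries was at -2.11 (adjusted p = 1). In SAS edgeR called 0 of 9, beside 0.00632% of all 15833 genes, with 0 by DESeq2, 0 with the block and 1 at an unadjusted p under 0.05, IL6 at -0.91, beside 629 genes (3.97%).

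**Figure D4:**
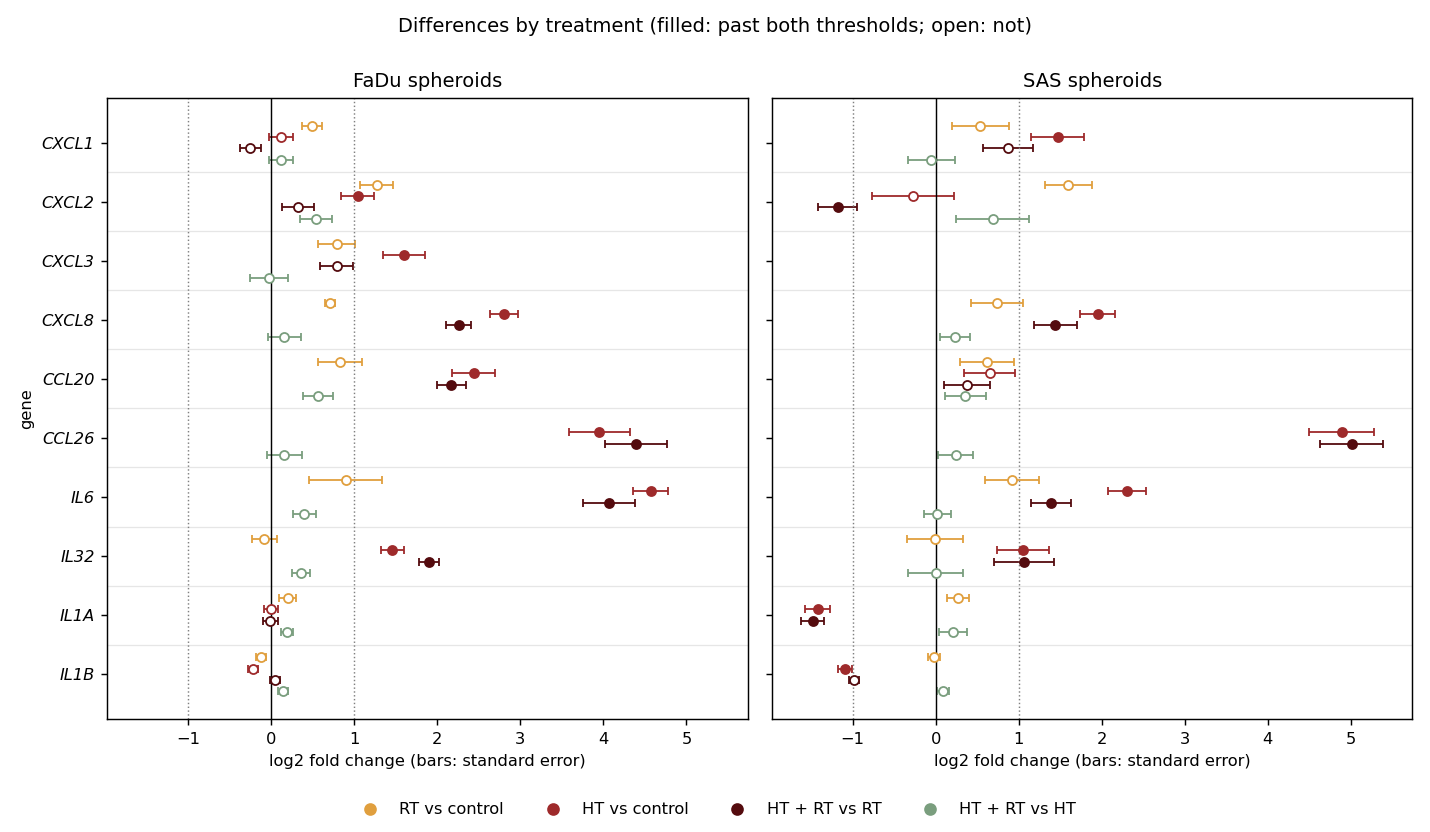
Log2 fold change with its standard error for each gene (vertical axis) in 4 comparisons, in FaDu and SAS, with filled points past both thresholds, open points not, and dotted lines at -1 and 1. Heat gives filled points for CXCL8, CCL26, IL6 and IL32 in both lines with and without RT, IL1A is at -1.42 and -1.48 in SAS, and no point of RT against control or of HT + RT against HT is filled. All points come from fits without the replicate block, with which CXCL2 was called for RT against control in both lines.

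Among the receptors of the members, 11 genes were listed. CXCR1, CCR6 and ACKR1 had no more than 2 counts in any group. CXCR2, the receptor of the ELR-type ligands, averaged 1.58 ± 0.268 CPM in FaDu controls and 1.59 ± 0.516 in SAS controls. It fell in SAS with HT + RT (log2 fold change -1.27, SE 0.35, adjusted p = 0.02), the 1 receptor called in any treatment comparison, and in FaDu did not pass (log2 fold change -0.39, SE 0.28, adjusted p = 0.38), with an interaction that did not pass (log2 fold change 0.91, SE 0.45, adjusted p = 0.28). Between the untreated lines CCR3 (log2 fold change 3.25, SE 0.41, adjusted p = 3e-05) and IL1R1 (log2 fold change 3.20, SE 0.26, adjusted p = 8.8e-07) were higher in FaDu, and IL6R (log2 fold change -1.74, SE 0.09, adjusted p = 2.5e-08) and IL6ST (log2 fold change -3.27, SE 0.09, adjusted p = 4.8e-10) were higher in SAS.

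Of the other ligand lists, the CXC cluster of chromosome 4 has 9 genes, of which PF4V1 had no count in any group and CXCL5, CXCL6 and PPBP had at most 6 counts in a group. Of the 11 other CXC, XC and CX3C ligands, 5 were tested with HT in FaDu and 2 in SAS, with 0 calls in either, while CXCL10 (adjusted p = 4.4e-07), CXCL11 (5.9e-06) and CXCL17 (8.8e-05) were higher in untreated FaDu, with 277, 173 and 172 counts over the FaDu controls and 1, 0 and 10 over the SAS controls. Of 24 CC ligands, 4 were tested with HT in FaDu and 4 in SAS, and 2 rose in each, CCL20 and CCL26 in FaDu and CCL26 and CCL2 in SAS. The attractant of monocytes CCL2 rose in SAS from 0.451 ± 0.136 to 2.5 ± 0.698 CPM (log2 fold change 2.48, SE 0.36, adjusted p = 0.00041) and had no count in any FaDu library. CCL5 (adjusted p = 1.5e-09) and CCL22 (5.9e-05) were higher in untreated FaDu, with 2760 and 77 counts against 5 and 0 in SAS, and CCL28 in untreated SAS (log2 fold change -1.64, SE 0.32, adjusted p = 0.00073). CCL28 fell with heat in irradiated FaDu (log2 fold change -1.14, SE 0.34, adjusted p = 0.046), a call that ended without FaDu RT replicate 1 (-1.07, adjusted p = 0.12).

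In the IL-6 family of 8 genes, IL11, which signals through the same chain as IL6, rose with HT in FaDu from 0.612 ± 0.471 to 3.27 ± 1.27 CPM (log2 fold change 2.45, SE 0.49, adjusted p = 0.0098) and in SAS from 11.1 ± 2.27 to 36.2 ± 1.48 (log2 fold change 1.74, SE 0.13, adjusted p = 1.7e-06). Untreated SAS had more IL11 (log2 fold change -4.17, SE 0.35, adjusted p = 1.3e-06), LIF (log2 fold change -1.18, SE 0.22, adjusted p = 0.00046) and CLCF1 (log2 fold change -1.32, SE 0.10, adjusted p = 6.2e-07), and untreated FaDu more CTF1 (log2 fold change 4.36, SE 0.20, adjusted p = 1e-08). No gene of the 11 in the IL-1 family other than IL1A and IL1B was called in a treatment comparison. The antagonist IL1RN (log2 fold change 3.77, SE 0.13, adjusted p = 1.5e-09), IL36G (log2 fold change 6.10, SE 0.32, adjusted p = 2.9e-08) and IL36RN (log2 fold change 1.04, SE 0.26, adjusted p = 0.0037) were higher in untreated FaDu.

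Among 22 other cytokines, TNFSF14 gave the largest difference, from 0.218, 0.228 and 0.354 CPM in SAS controls to 18.8, 16.7 and 15.2 with HT. It rose there (log2 fold change 5.99, SE 0.23, adjusted p = 4.3e-09) and did not pass in FaDu (log2 fold change 0.57, SE 0.28, adjusted p = 0.22), and the interaction of line with HT passed (log2 fold change -5.39, SE 0.37, adjusted p = 7.3e-07). CSF1, a growth factor of macrophages, rose in SAS (log2 fold change 1.51, SE 0.13, adjusted p = 6.5e-06) and not past the test in FaDu (log2 fold change 0.37, SE 0.23, adjusted p = 0.32), with an interaction that passed (log2 fold change -1.11, SE 0.29, adjusted p = 0.037). IL16 rose in FaDu (log2 fold change 1.77, SE 0.48, adjusted p = 0.035), and its interaction did not pass (log2 fold change 1.25, SE 0.56, adjusted p = 0.26). LTA passed with HT in SAS (adjusted p = 0.0016), with 4 counts over the control and 56 over the HT libraries. TNF passed with HT + RT in FaDu (adjusted p = 0.0011), with 3 counts over the controls and 74 over the HT + RT libraries, too few for a precise size. HT + RT also raised CSF3 (log2 fold change 1.85, SE 0.52, adjusted p = 0.038) and TNFSF14 (log2 fold change 1.01, SE 0.28, adjusted p = 0.034) in FaDu and IL23A in SAS (log2 fold change 1.01, SE 0.34, adjusted p = 0.048). With HT + RT the lines differed in IL16 (log2 fold change 2.02, SE 0.58, adjusted p = 0.049), TNFSF14 (log2 fold change -4.87, SE 0.39, adjusted p = 1.6e-06) and TNFSF15 (log2 fold change -1.13, SE 0.28, adjusted p = 0.02), while CSF3 (log2 fold change 1.14, SE 0.71, adjusted p = 0.43) and IL23A (log2 fold change -0.61, SE 0.47, adjusted p = 0.55) did not pass that test. Untreated FaDu had more IL7 (3.31), TNFSF10 (2.89) and TNFSF14 (1.81) and less CSF2 (-3.46) and IL16 (-1.41).

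Of 14 NF-kappaB subunits and feedback genes, RT called 1 in FaDu, NFKBIZ, at 20.4, 23.1 and 20.8 CPM in controls and 51.3, 48 and 45.1 with RT (log2 fold change 1.17, SE 0.09, adjusted p = 0.005), which held without FaDu RT replicate 1 (1.12, adjusted p = 0.0028). In SAS NFKBIZ was 4.24, 5.76 and 6.31 CPM in controls and 10.2, 16.5 and 9.87 with RT, which did not pass (log2 fold change 1.17, SE 0.23, adjusted p = 0.14), nor did the interaction of line with RT (log2 fold change 0.00, SE 0.42, adjusted p = 1). Every SAS RT library lay above every SAS control. These fits did not use the replicate block, which in SAS RT against control called 25 genes, against 4 without it. With HT NFKBIZ rose in FaDu (log2 fold change 1.44, SE 0.12, adjusted p = 0.00012) and in SAS (log2 fold change 3.10, SE 0.22, adjusted p = 1e-06), with an interaction toward SAS (log2 fold change -1.62, SE 0.27, adjusted p = 0.0021). SAS heat also raised TNFAIP3 (log2 fold change 1.23, SE 0.10, adjusted p = 2.4e-06), ICAM1 (log2 fold change 1.39, SE 0.21, adjusted p = 0.00048) and BIRC3 (log2 fold change 1.01, SE 0.30, adjusted p = 0.03), the last with overlapping groups. None of these 3 passed with HT in FaDu, and their interactions of line with HT did not pass (TNFAIP3 -0.22, ICAM1 -0.98 and BIRC3 -1.01, adjusted p = 0.74, 0.061 and 0.15). In FaDu TNFAIP3 rose with HT + RT (log2 fold change 1.87, SE 0.21, adjusted p = 0.00047), and NFKBIA differed between the lines with HT + RT (log2 fold change 1.07, SE 0.16, adjusted p = 0.00067). Untreated FaDu had more NFKBIZ (2.01), TNFAIP3 (1.21), NFKBIA (1.19) and BIRC3 (1.10). The list's median was 0.20 in FaDu and 0.19 in SAS, beside 0.01 and 0.00 for all genes.

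Of 11 other transcription factors of cytokine genes, 8 rose with HT in FaDu, beside 4.97% of all genes called. The list median was 1.76, and that of all genes 0.01. The 3 highest were FOS, from 15.8, 16.7 and 19.2 to 1760, 1740 and 1560 CPM (log2 fold change 6.64, SE 0.10, adjusted p = 2.4e-09), ATF3 (log2 fold change 4.59, SE 0.25, adjusted p = 1.1e-05) and EGR1 (log2 fold change 4.09, SE 0.07, adjusted p = 7.5e-09), and the 3 lowest of those that rose were JUND (1.76), JUNB (1.62) and FOSL1 (1.32). In SAS 6 rose, FOS (log2 fold change 3.65, SE 0.26, adjusted p = 1e-06), FOSB (log2 fold change 2.26, SE 0.27, adjusted p = 9.6e-05), ATF3 (log2 fold change 2.22, SE 0.14, adjusted p = 4e-07), JUN (log2 fold change 1.25, SE 0.10, adjusted p = 2.9e-06), CEBPD (log2 fold change 1.13, SE 0.12, adjusted p = 2.4e-05) and FOSL2 (log2 fold change 1.02, SE 0.07, adjusted p = 7.7e-07). Of all genes 6.03% were called there, and the list median was 1.02 beside 0.00 for all genes. The interaction of line with HT called 8 of the 11, all toward FaDu, beside 2.74% of all genes. EGR1 (log2 fold change 4.00, SE 0.33, adjusted p = 3.8e-06), FOS (log2 fold change 3.02, SE 0.32, adjusted p = 4.4e-05) and ATF3 (log2 fold change 2.40, SE 0.30, adjusted p = 0.00021) were the 3 highest and JUNB (1.74), FOSL1 (1.48) and JUND (1.28) the 3 lowest. Between the untreated lines 1 of the 11 was higher in FaDu and 6 were lower, beside 38.1% of all 15810 genes called, with a list median of -1.02. The 3 highest of these 7 were FOSB (1.26, with overlapping groups), JUND (-1.02) and JUN (-1.09), and the 3 lowest ATF3 (-1.24), FOSL1 (-1.70) and EGR1 (-2.41). With RT in FaDu EGR1 did not pass (log2 fold change 2.07, SE 0.45, adjusted p = 0.35), but did without FaDu RT replicate 1 (1.18, adjusted p = 0.0011). Of 8 regulators of AU-rich mRNA, ZFP36 (log2 fold change 2.95, SE 0.12, adjusted p = 1.4e-06), ZC3H12A (log2 fold change 1.95, SE 0.12, adjusted p = 2.1e-05) and ZFP36L1 (log2 fold change 1.30, SE 0.10, adjusted p = 9.8e-05) rose with HT in FaDu and ZFP36 in SAS (log2 fold change 1.27, SE 0.20, adjusted p = 0.00071). Their interactions of line with HT passed at 1.71, 1.04 and 1.29.

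**Figure D5:**
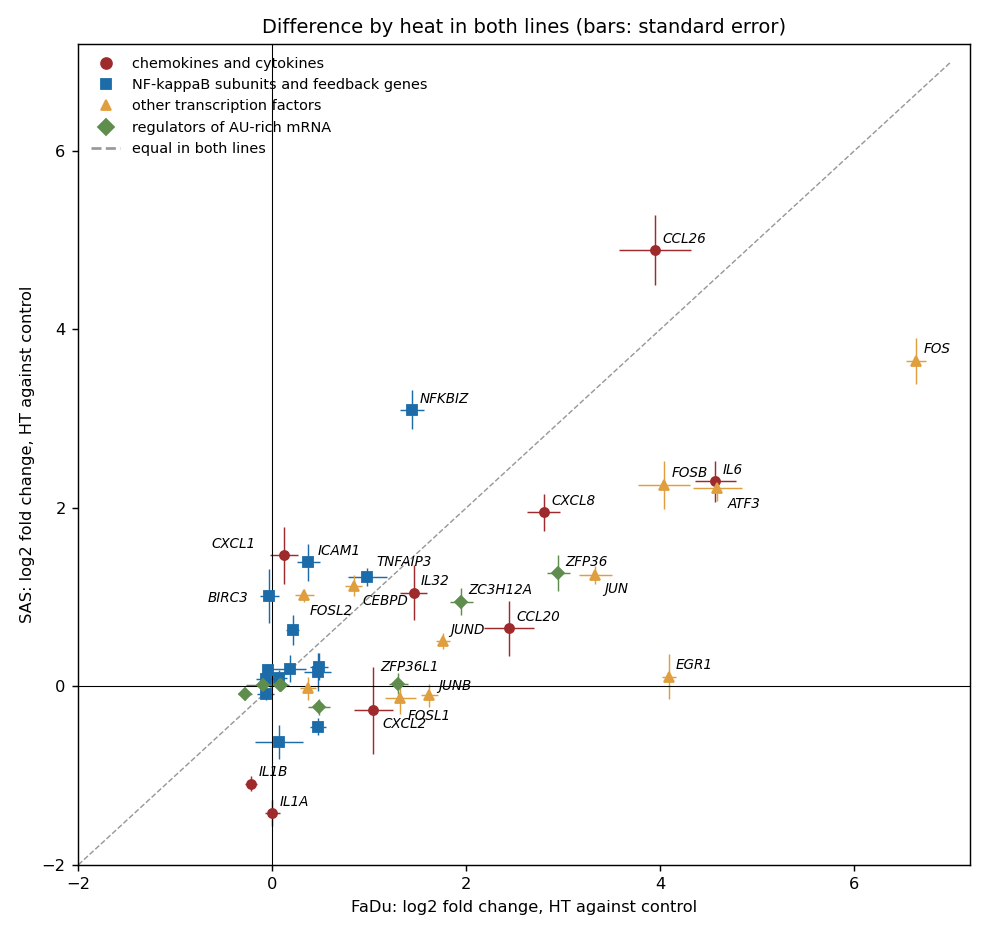
Log2 fold change of HT against control in FaDu (horizontal axis) and SAS (vertical axis), with standard errors, for the chemokines and cytokines and 3 lists of regulators, and a dashed line where both are equal. IL6 (4.57 and 2.30) lies below that line next to ATF3 (4.59 and 2.22), FOS and FOSB also lie below it, while CCL26 (3.95 and 4.89) and NFKBIZ (1.44 and 3.10) lie above it.

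Likeness to other genes was described for the 6 members with a mean log2 CPM of at least 1 in both lines, over 11420 genes, as the mean of the correlations within the 12 libraries of each line. Heated and unheated libraries form separate sets in each line, and the values include the gap between them. The gene most like CXCL8 was IL6 (r = 0.97 in FaDu and 0.99 in SAS), followed by MAFF and ATF3. IL6 was most like CXCL8, SOCS3 and PHLDA2, and IL32 was most like DUSP5, SAT1 and MAFK. CXCL1 was nearest SLC1A3, PRKAB1 and BICDL1, IL1A nearest ITPRIP, HCAR3 and DUSP6, and IL1B nearest AREL1, TAF4 and NOL6.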

How the data were processed

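RNA had been isolated with RNeasy kits, made into libraries with the directional NEBNext Ultra II kit and sequenced on a NovaSeq 6000. The authors deposited 7 tables of raw counts per Ensembl gene, and columns that recur between tables were identical. The authors' notes name bcl2fastq and DESeq2 and the build mm9, although the identifiers are those of human genes. Aligner, counter, strand setting and annotation are not given in the sources used here. The 7 deposited normalized tables were not used, since the raw counts were at hand. GENCODE v29 gave names, lengths and positions for 56898 of 57500 identifiers, and the other 602 held 0.0217% of counts.

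edgeR 4.0.16 (limma 3.58.1, R 4.3.3) was fitted to the deposited counts of only the groups compared, or of all 4 groups of an interaction, with TMM scaling, filterByExpr at a minimum count of 10, the quasi-likelihood test and Benjamini-Hochberg adjustment over all genes. Calls have adjusted p < 0.05 and log2 fold change beyond 1 or -1. Standard errors are the log2 fold change over the root of the F statistic. CPM used TMM over all 24 libraries and RPKM the union of exons. Alternatives were DESeq2 1.42.0, RLE size factors, no filter, a replicate block, adjusted p alone, all 4 groups of a line in 1 fit, and leaving out each library. The adjusted p alone reuses the reported fit without the fold threshold, so it can add a call but cannot end one. After seeing the data, listed genes outside the 10 members were also fitted without FaDu RT replicate 1. Levels were also computed with RLE and plain totals.

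In 9 comparisons every same-numbered pair of deviations from the group means correlated above 0.1 (0.15 to 0.57), which was taken as pairing by replicate number. In SAS HT against control (0.02 to 0.18) and between the untreated lines (-0.02 to 0.10) not every pair did. Differently numbered pairs in SAS HT against control had a median of -0.07, so the cutoff does not show that pairing was absent there. All 10 members are described. Genes of other lists are named where called in a comparison that is described, or, where more than 6 of a list were called, by the 3 highest and 3 lowest differences. Members, lists and motifs were chosen with earlier results of these data known. Figures were drawn with matplotlib 3.10.9.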

Additional observations from a re-analysis of the deposited data

Results flagged for a closer look

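These 8 results stood out because the effect of a treatment differed between FaDu and SAS by an interaction test of edgeR over all genes, given as the FaDu minus the SAS log2 fold change. For HT the differences were -1.31 for CXCL1, 1.82 for CCL20, 2.30 for IL6 and 1.45 for IL1A. For HT + RT, which shares the control libraries with HT, they were -1.13 for CXCL1, 2.03 for CCL20, 2.70 for IL6 and 1.44 for IL1A. The value of CXCL1 was the least stable to leaving out a library, and those of IL6 and IL1A held in every alternative run. Line and dose differ together in the HT + RT groups and cannot be told apart there.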

How the results depend on the processing

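Among the members, no result changed direction past a threshold in any alternative run. Values of the other listed genes come from fits without the replicate block, and of the alternatives only the fits without FaDu RT replicate 1 are described for them. Of the fits of single members under alternatives, 1889 kept their side of the thresholds, 33 lost a call, 31 gained one, 78 changed sign without a call in either fit, and 0 reversed a call. For FaDu RT against control the count of members called went from 0 to 1 with DESeq2 (11 genes called in all), with no filter on low counts (28), with the replicate block (28) and with the adjusted p alone. It was 0 to 1 when each library was left out, beside 0 to 8 genes. For SAS RT against control it went from 0 to 1 with DESeq2 (10 genes called in all), with no filter (30) and with the replicate block (25). In each of these the member was CXCL2, except for CXCL8 with the adjusted p alone. The interaction of line with HT called 4 members, beside 471 of 17219 genes. When each library was left out it called 2 to 5 members, beside 368 to 523 genes of 17603 to 17892. The cause of these changes was not tested. Among the members, the replicate block changed no call other than those of CXCL2 with RT, CCL20 in SAS with HT + RT and CXCL2 in the interaction of line with HT + RT. In SAS HT against control, where not every same-numbered pair correlated above 0.1, the block called 7 members, beside 915 of 15000 genes. The fit without it also called 7 members, beside 904 genes. Mean levels moved by less than 1 SD in 80 of 80 cases with RLE and in 67 of 80 with plain totals. Depth limits CCL26 without heat, CXCL3 in SAS, TNF and LTA, whose counts are few. Reads shared by CXCL1, CXCL2 and CXCL3 and the unstated strand setting limit those genes and IL6. Members not tested in the reported fit had no value to compare with, and none of them was called in any alternative.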
